A study of Rattus norvegicus with 22 samples.

Results

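Rows for 9 symbols of hepatic stellate cell and extracellular matrix genes were sought in a table of liver gene expression in rats, and 8 of them had a row: Lrat, Reln, Des, Pdgfrb, Col1a1, Col3a1, Dcn and Acta2. The ninth, Col1a2, was not analysed here under that symbol. The 8 genes were chosen by symbol, out of 14971 genes in the table, and all 8 were among the 12424 genes whose mean level was high enough to be tested. Liver RNA was sequenced from 22 rats in a design with 2 factors, exposure to ozone or air and hepatic vagotomy or sham surgery. Hepatic vagotomy is the cutting of the vagus nerve branch that supplies the liver, and sham surgery is the same operation without the cut. Rats were operated on at 12 weeks of age, were given 5 to 6 days to recover, breathed air or 1 ppm ozone for 4 hours on 1 or 2 days, and were necropsied no later than 2 hours after exposure. The groups were 6 sham-operated rats in ozone, 5 sham-operated rats in air, 5 vagotomised rats in ozone and 6 vagotomised rats in air. Neither strain nor sex nor the number of exposure days of a given rat was used here, and each library came from a 10 to 20 mg piece of whole liver.

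Hepatic stellate cells lie between hepatocytes and the sinusoidal endothelium and store vitamin A as retinyl esters in lipid droplets. When liver is injured they can lose these droplets, divide under platelet-derived growth factor, take on a contractile phenotype and secrete fibrillar collagen, a change called activation. Lrat, Reln and Des are known as markers of stellate cells, Pdgfrb is their growth factor receptor, Col1a1, Col3a1 and Dcn encode matrix proteins, and Acta2 is the classical marker of the activated, contractile state. Portal fibroblasts, mesothelium and vascular smooth muscle share several of these genes.

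Each library held between 14098863 and 21141337 reads assigned to genes, with 14737832 to 19469381 in sham ozone, 16408931 to 18721031 in sham air, 16259568 to 17582912 in vagotomised ozone and 14098863 to 21141337 in vagotomised air. Levels are normalised counts, that is, read counts divided by 1 size factor per library. They are not divided by transcript length, so levels of different genes are not compared. A change is a log2 fold change from limma on log2(normalised count + 1) with its standard error, and the words rose and fell are used of genes whose p, adjusted by Benjamini-Hochberg over all 12424 genes, was under 0.05. Such a fold understates the change of genes with low counts. A set of 4 libraries stood apart by low 5.8S ribosomal RNA, with normalised counts of 38.1 to 180, against 342 or more in the other 18. They were 1 in sham ozone, 1 in vagotomised ozone and 2 in vagotomised air, and results that rest on them are given with and without them. The share of all genes tested whose ozone and air groups do not overlap was not counted. In a whole piece of liver, fewer cells of a type and less RNA per cell cannot be told apart.

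The stellate cell markers Lrat, Reln, Des, Dcn, Pdgfrb, Colec11 and Hand2 were all detected in every library. Of other stellate cell markers, Ntrk3 was at 0 in 7 libraries and Gfap averaged only 10.5 normalised counts. Hepatocyte markers summed to between 2337380 and 3310620 normalised counts in the 22 libraries.

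Of the 8 genes 5 changed with ozone when its effect was averaged over both surgery groups, against a background of 39.1% of all genes tested. Dcn rose, with a log2 fold change of 1.11 ± 0.25 (limma adjusted p = 0.00106). Pdgfrb (-0.69), Col1a1 (-0.81), Col3a1 (-0.56) and Lrat (-0.38) fell on the log2 scale. Reln, Des and Acta2 did not pass the test. Within sham rats alone 3 of the 8 were called, Dcn upwards and Pdgfrb and Col3a1 downwards, against a background of 28.4%. Within vagotomised rats alone none of the 8 was called by limma, against a background of 21.1%. There 2 of the 8, Dcn and Pdgfrb, had an unadjusted limma p under 0.05, as had 4021 of all 12424 genes. The averaged comparison is made of the same libraries as the other 2 and is no separate evidence.

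**Figure D1:**
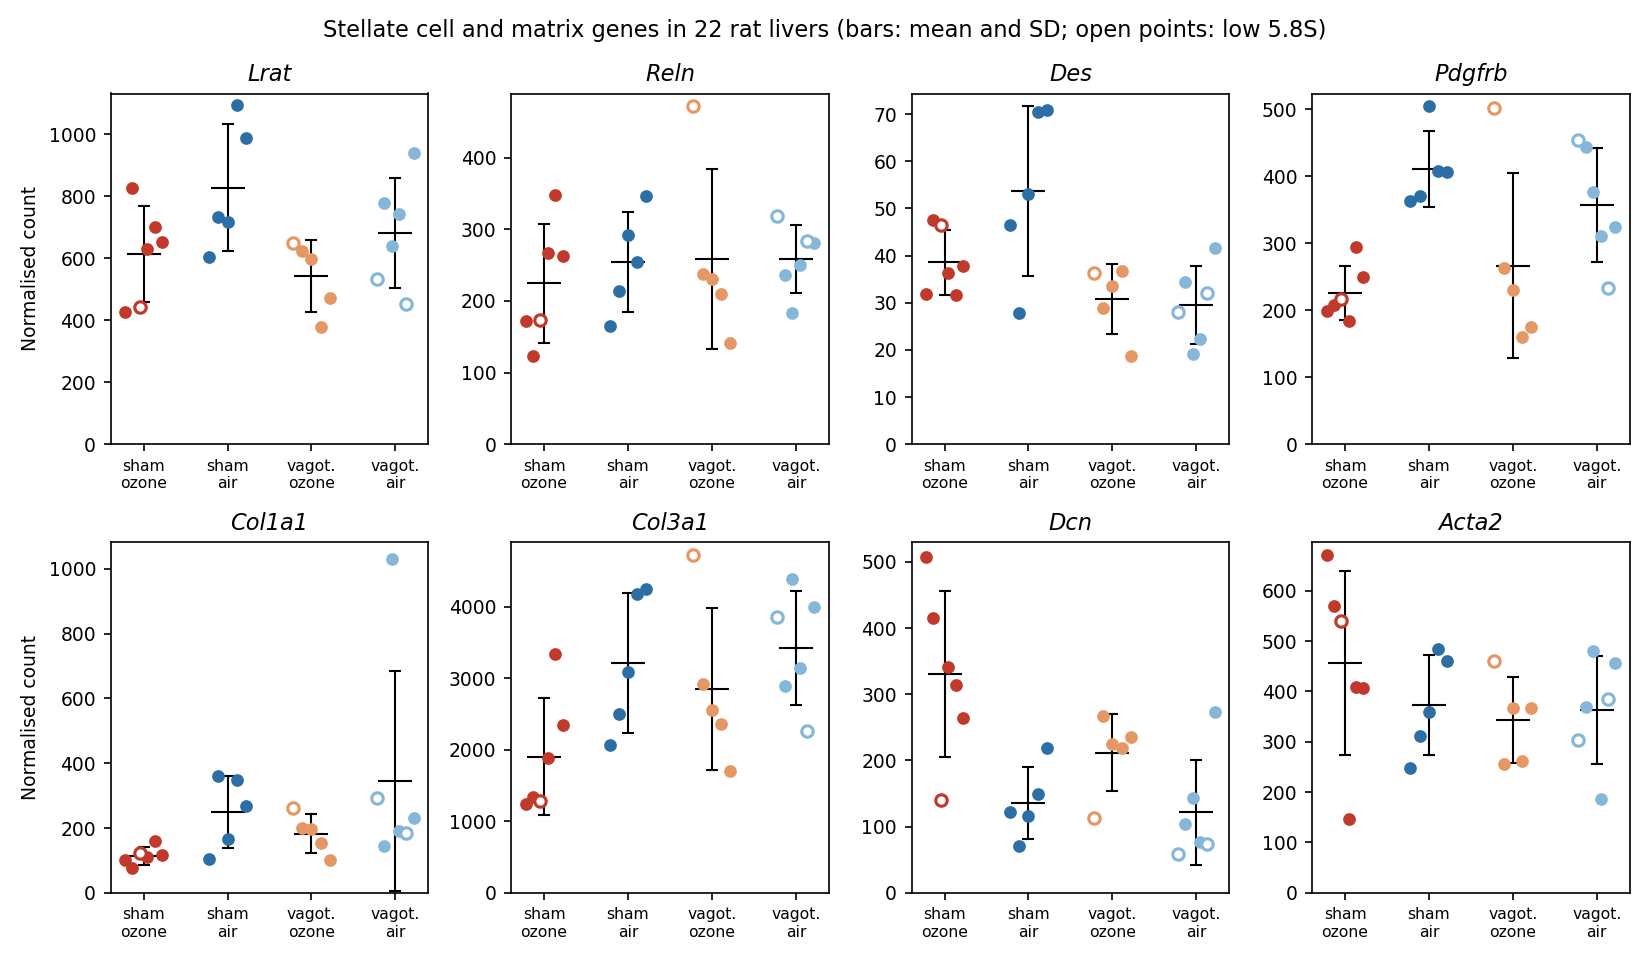
Normalised count (linear y axes) of each of the 8 genes in each of the 22 livers, by group. Points are libraries, open points the 4 libraries low in 5.8S ribosomal RNA, and black bars the group mean with its SD. Pdgfrb in the 6 sham ozone livers lies between 184 and 294, below all 5 sham air livers, and Dcn lies higher in most ozone livers than in air livers.

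Lrat encodes lecithin retinol acyltransferase, the enzyme that esterifies retinol for storage. Its normalised count in the sham ozone livers ran from 425 over a median of 642 to 826, and the 5 sham air livers held 604, 734, 717, 1095 and 987. The vagotomised ozone livers held 650.4, 622, 597, 377 and 470.3, against 453 to 939.9 with a median of 691 in vagotomised air livers. In all, 5 of 6 sham ozone livers and 5 of 5 vagotomised ozone livers lay below the median of their air group, and in both surgery groups the ranges overlapped. The log2 fold change was -0.44 ± 0.20 in sham rats (limma adjusted p = 0.113) and -0.31 ± 0.20 in vagotomised rats (limma adjusted p = 0.309), and neither passed the test. Averaged over both it was -0.38 ± 0.14, with an adjusted p of 0.0417 from limma, a call that was lost in 10 of the 22 fits that left out 1 library, where the adjusted p reached 0.0918. Without the 4 libraries low in 5.8S the averaged change was -0.48 ± 0.14 (limma adjusted p = 0.00779). In vagotomised rats it was then -0.60 ± 0.20 with a limma adjusted p of 0.0384, and all 4 remaining ozone livers lay below all 4 remaining air livers.

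The promoter of Lrat is shown because the gene fell and is the vitamin A storage enzyme of stellate cells. It is the RefSeq sequence of GRCr8, chr2:170571163-170571462 on the minus strand, from 250 bases before the annotated start to 50 after it, written 5′ to 3′ along the gene. Capitals mark motifs found among 5 searched on both strands, namely the CCAAT box spelled CCAAT, the TATA box spelled TATAAA, the GC box spelled GGGCGG, the CAGA box spelled CAGACA and a core motif of the glucocorticoid receptor spelled AGAACA. The expression values were made on another build, rn6.
Lrat: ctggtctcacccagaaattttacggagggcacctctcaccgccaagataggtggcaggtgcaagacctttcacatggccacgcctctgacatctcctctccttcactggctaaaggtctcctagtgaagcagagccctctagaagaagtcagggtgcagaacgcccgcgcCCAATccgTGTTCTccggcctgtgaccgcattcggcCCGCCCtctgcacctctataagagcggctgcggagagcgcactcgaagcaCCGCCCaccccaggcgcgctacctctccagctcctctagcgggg
The window holds CCAAT on the plus strand, AGAACA read on the minus strand (TGTTCT as printed), and GGGCGG on the minus strand at 2 places (CCGCCC as printed), and none of these matches overlap. Of 33469 rat promoters of this length, 37.5% hold CCAAT, 33.1% hold GGGCGG and 20.7% hold AGAACA. A match is a run of letters and was not tested for binding.

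Reln encodes Reelin, a secreted glycoprotein made in liver by stellate cells. It had 123 to 348 normalised counts with a median of 218 in sham ozone livers, against 165, 214, 292, 254 and 346 in sham air livers. Vagotomised ozone livers held 472, 237, 230.5, 209.9 and 141, against 183 to 318 with a median of 266 in vagotomised air livers. One vagotomised ozone liver, replicate 1, was far above the other 4, and it is also the library with the least 5.8S. Groups overlapped throughout, and the averaged log2 change of -0.16 ± 0.19 had a 95% interval of -0.54 to 0.23 and did not pass the test (limma adjusted p = 0.534). Without the 4 libraries low in 5.8S it was -0.19 ± 0.18 (limma adjusted p = 0.405).

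Des encodes desmin, the intermediate filament protein that marks stellate cells in rodents as well as muscle. Its level ran from 31.6 to 47.5 normalised counts with a median of 37.1 in sham ozone livers, against 46.4, 27.8, 53.0, 70.5 and 70.8 in sham air livers. Vagotomised ozone livers held 36.2, 28.8, 33.5, 36.6 and 18.7, against 19 to 41.6 with a median of 30.1 in vagotomised air livers. The highest values of Des were those of 2 sham air livers, and the other 3 groups lay under 50. The log2 change with ozone was -0.41 ± 0.24 in sham rats (limma adjusted p = 0.211) and 0.06 ± 0.24 in vagotomised rats (limma adjusted p = 0.889), and averaged -0.17 ± 0.17 (limma adjusted p = 0.443). In sham rats the change passed the test in only 1 of 34 alternative fits, that without sham air replicate 2, the lowest of its group (limma adjusted p = 0.0459). Leaving out other libraries gave a limma adjusted p of up to 0.430.

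Pdgfrb encodes the beta receptor for platelet-derived growth factor, which drives stellate cell division. Sham ozone livers had 184 to 294 normalised counts with a median of 212, against 363, 369.8, 505, 407 and 406 in sham air livers. All 6 sham ozone livers lay below all 5 sham air livers. The log2 fold change was -0.87 ± 0.22 (limma adjusted p = 0.00447), a level of 0.547 times that in air, and it was called in each of the 35 alternative fits. Vagotomised ozone livers had 502, 263, 230.5, 160.4 and 175 normalised counts, against 233 to 454 with a median of 351 in vagotomised air livers. Of these 5 livers 4 lay below the median of vagotomised air, and replicate 1, the library with the least 5.8S, lay above every vagotomised air liver. With it the change was -0.51 ± 0.22 and did not pass the test (limma adjusted p = 0.101). Without replicate 1 the log2 change was -0.77 (limma adjusted p = 0.00284). Without all 4 libraries low in 5.8S the change in vagotomised rats was -0.82 ± 0.17 (limma adjusted p = 0.00142), the ozone and air livers did not overlap, and the change in sham rats was -0.86 ± 0.15 (limma adjusted p = 0.000175).

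Col1a1 and Col3a1 encode chains of collagen types I and III, the fibrillar collagens that build liver scar. Col1a1 had 76.2 to 160.1 normalised counts with a median of 113 in sham ozone livers, against 103, 359.9, 167, 347 and 268 in sham air livers. All 6 sham ozone livers lay below the median of sham air, and only 2 lay below every sham air liver. The log2 fold change was -1.01 ± 0.39 with a limma adjusted p of 0.0549, just above the threshold. It passed in only 9 of the 35 alternative fits. Among these were edgeR (adjusted p = 0.0457), DESeq2 (adjusted p = 0.0424), 2 other scalings (limma adjusted p = 0.0342 and 0.0380) and the fit without sham air replicate 1 (limma adjusted p = 0.0159). With a replicate block the limma adjusted p was 0.0898, and with 1 library left out it reached 0.143. In vagotomised rats Col1a1 had 261, 199, 198, 154 and 99.8 normalised counts in ozone, against 144 to 1032 with a median of 211 in air. The value of 1032 belongs to vagotomised air replicate 3, and the second highest liver of that group had 294. The change in vagotomised rats was -0.61 ± 0.39 (limma adjusted p = 0.291), and -0.22 without that library (limma adjusted p = 0.659). With that library left out, the change in sham rats was again -1.01 and passed (limma adjusted p = 0.0109). Averaged over both surgeries Col1a1 fell with a log2 change of -0.81 ± 0.27 (limma adjusted p = 0.0216). Without vagotomised air replicate 3 the averaged change was -0.62 (limma adjusted p = 0.0219). Over all alternatives the averaged adjusted p stayed under 0.05, with a highest value of 0.0471. Without the 4 libraries low in 5.8S the averaged change of Col1a1 was -0.95 ± 0.31 (limma adjusted p = 0.0183).

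Col3a1 had 1241 to 3339 normalised counts with a median of 1609.8 in sham ozone livers, against 2068, 2498, 3096, 4178 and 4251 in sham air livers. Of the 6 sham ozone livers 4 lay below every sham air liver. Its log2 fold change was -0.80 ± 0.27 (limma adjusted p = 0.0271), and the call was lost on leaving out sham air replicate 4 or 5 or sham ozone replicate 1, 2 or 3, with adjusted p of 0.0553 to 0.0810. Vagotomised ozone livers had 4727, 2925, 2552, 2359 and 1702 normalised counts, against 2260.1 to 4395 with a median of 3497 in vagotomised air livers. Replicate 1 was again the highest of the ozone group and of all 22 livers, and the other 4 lay below the air median. The change in vagotomised rats was -0.31 ± 0.27 (limma adjusted p = 0.459), and -0.60 ± 0.27 without the 4 libraries low in 5.8S (limma adjusted p = 0.119). The averaged change of -0.56 ± 0.19 (limma adjusted p = 0.0219) was called in every alternative, with a highest adjusted p of 0.0497, and was -0.65 ± 0.18 without the 4 libraries low in 5.8S (limma adjusted p = 0.00625).

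Dcn encodes decorin, a small leucine-rich proteoglycan that binds collagen fibrils and transforming growth factor beta. Sham ozone livers had 141 to 507 normalised counts with a median of 328, against 121, 71.4, 116, 149 and 219 in sham air livers. Of 6 sham ozone livers 5 lay above every sham air liver, and the sixth, replicate 3, is the one low in 5.8S. Dcn rose in sham rats, with a log2 fold change of 1.27 ± 0.35 (limma adjusted p = 0.00897), or 2.41-fold. Vagotomised ozone livers had 113, 267, 224, 219 and 236 normalised counts, against 58.7 to 273 with a median of 90.4 in vagotomised air livers. All 5 vagotomised ozone livers lay above the air median, but 1 air liver, replicate 6, was the highest of both groups. The change was 0.95 ± 0.35 and did not pass the test (limma adjusted p = 0.0581), and it passed without that air liver (limma adjusted p = 0.00889) and without ozone replicate 1 (limma adjusted p = 0.0227). The averaged rise was called in every alternative, with a highest adjusted p of 0.00282.

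**Figure D2:**
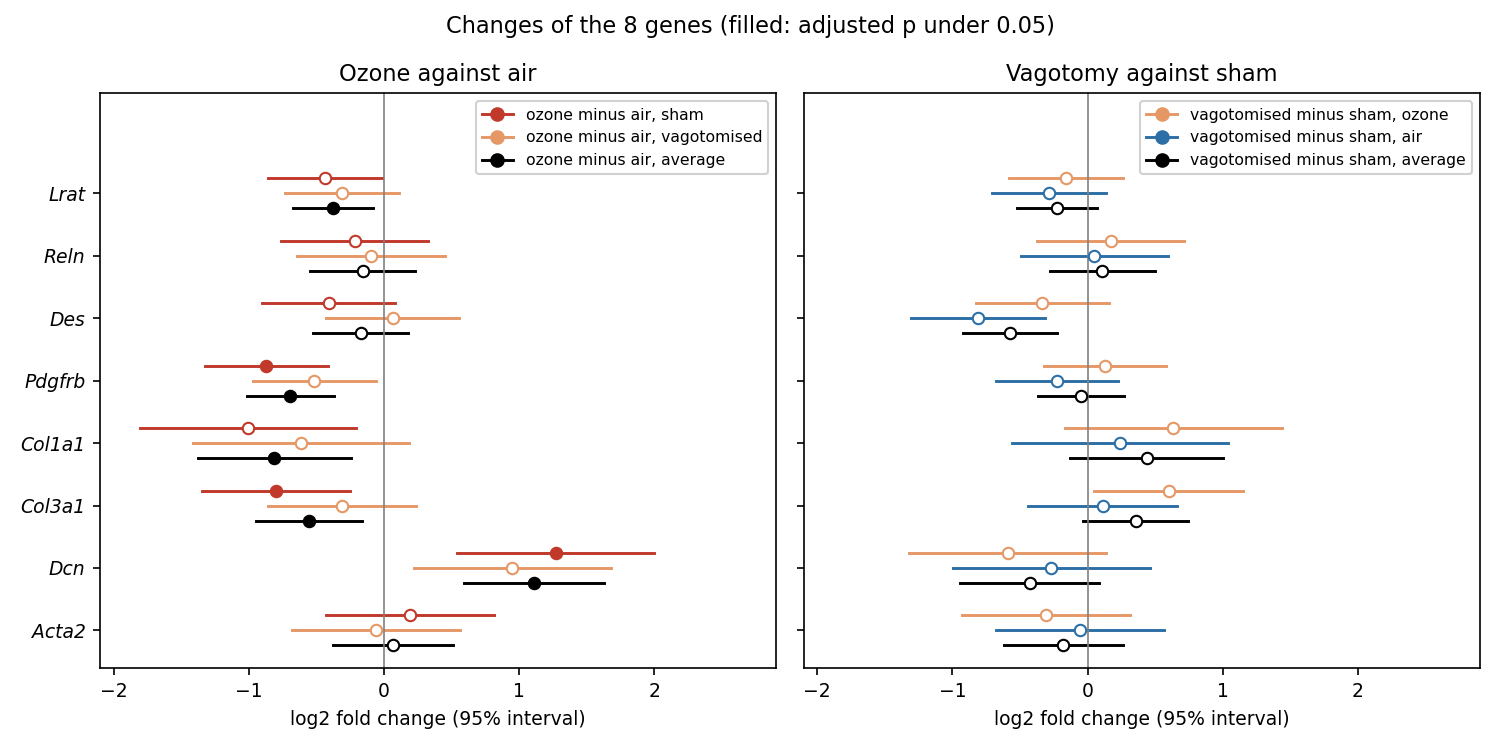
Log2 fold change (points) with its 95% interval (lines) for each of the 8 genes, ozone against air on the left and vagotomy against sham on the right, within each group of rats and averaged. Filled points have a limma adjusted p under 0.05: 5 genes in the averaged ozone comparison, 3 in sham rats, and none with vagotomy.

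Of the 8 genes Dcn alone rose with ozone, and its level correlated with 5.8S ribosomal RNA over all 22 libraries. The ratio of Dcn to Col3a1 was 0.0942 to 0.408 in sham ozone livers, against 0.0286 to 0.0587 in sham air livers, without overlap. In vagotomised livers it was 0.0240 to 0.139 in ozone, against 0.0152 to 0.0683 in air, with overlap. Dcn rose and Col3a1 fell in these same sham libraries, so the ratio is no separate evidence. With group means removed, Dcn and 5.8S correlated over the 22 libraries (Pearson r = 0.74, permutation p = 0.00062, adjusted over 8 genes 0.00496). Spearman's rho was 0.69 (permutation p = 0.00172, adjusted 0.0138), and r was 0.60 without the 2 libraries farthest from the median of 5.8S. For Reln the r was -0.51 (permutation p = 0.0517, adjusted 0.207) and rho -0.57 (permutation p = 0.0117, adjusted 0.0467). No other of the 8 passed on either measure. The lowest Dcn of each ozone group and of vagotomised air was in a library low in 5.8S. In sham air, which has no such library, the highest Dcn (219) was at the lowest 5.8S (713). Among vagotomised ozone livers not low in 5.8S, the highest Dcn (267) was also at the lowest 5.8S (802). In vagotomised air the 2 highest Dcn values (273 and 143) were at the 2 highest 5.8S values (1687 and 1877). The correlation was not computed without the 4 libraries low in 5.8S. Without the 4 libraries low in 5.8S, the change of Dcn was 1.50 ± 0.28 in sham rats (limma adjusted p = 0.000374), where the groups then did not overlap, and 0.82 ± 0.32 in vagotomised rats (limma adjusted p = 0.0664). With log2 5.8S as a covariate the change in vagotomised rats was 0.77 (limma adjusted p = 0.0254).

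**Figure D3:**
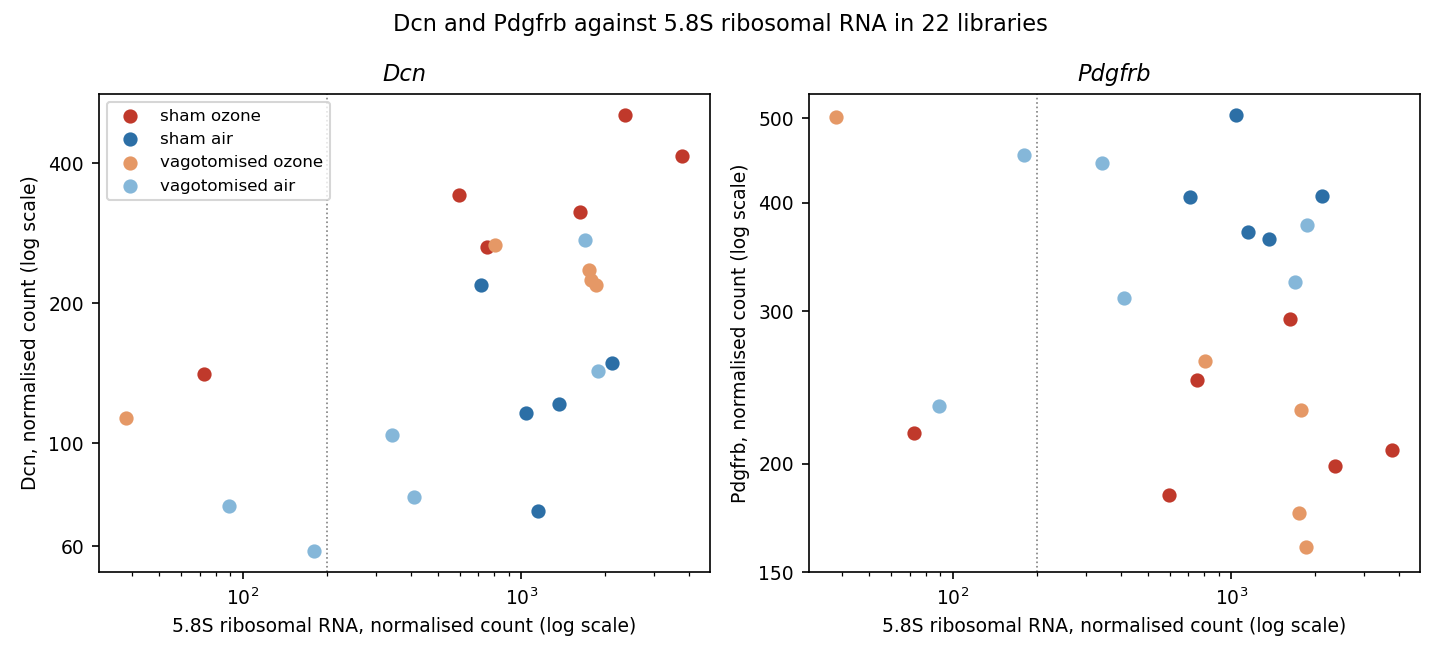
Normalised counts of Dcn (left) and Pdgfrb (right) against that of 5.8S ribosomal RNA in the 22 libraries, all axes logarithmic, coloured by group. The dotted line marks 200 counts of 5.8S, with 4 libraries to its left. Dcn is low in those 4 in comparison with others of their groups, and Pdgfrb is highest within vagotomised ozone in the library with the least 5.8S.

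Acta2 encodes alpha smooth muscle actin, which quiescent stellate cells make little of and vascular smooth muscle makes throughout. Actin genes are close in sequence, so reads could be split between them and the value is uncertain to that extent. Sham ozone livers had 146 to 671 normalised counts with a median of 474, against 248, 312, 359.6, 484 and 459.8 in sham air livers. Vagotomised ozone livers had 461, 256, 368, 261 and 367, against 187 to 481 with a median of 378 in vagotomised air livers. Both pairs of groups overlapped, and in sham ozone 3 livers lay above every air liver while replicate 4, at 146, was the lowest of all. The log2 change was 0.19 ± 0.30 in sham rats (limma adjusted p = 0.674) and -0.06 ± 0.30 in vagotomised rats (limma adjusted p = 0.919). The averaged change of 0.07 ± 0.21 had a 95% interval of -0.37 to 0.51, and it was -0.04 ± 0.24 without the 4 libraries low in 5.8S (limma adjusted p = 0.919). The promoter of Acta2 is shown as that of the activation marker, for comparison with Lrat. It lies at chr1:241172454-241172753 of GRCr8 on the minus strand, from RefSeq, with the same window and motifs.
Acta2: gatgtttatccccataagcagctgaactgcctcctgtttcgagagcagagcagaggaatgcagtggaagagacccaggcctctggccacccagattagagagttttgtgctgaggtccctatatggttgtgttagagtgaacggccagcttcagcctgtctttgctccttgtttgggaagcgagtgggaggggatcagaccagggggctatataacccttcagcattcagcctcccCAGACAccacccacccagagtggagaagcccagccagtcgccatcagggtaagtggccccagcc
Of the 5 motifs it holds CAGACA alone, the box known from genes that respond to transforming growth factor beta, on the plus strand just before the start. Of the 33469 promoters 21.1% hold it. By symbol 4 of the 8 genes matched the promoter table, Lrat, Reln, Des and Acta2.

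None of the 8 genes passed the test with vagotomy. In air none of all 12424 genes was called (0% called; 387 had an unadjusted p under 0.05, and edgeR and DESeq2 also called 0). In ozone the background was 1.34% and averaged over exposures 0.113%, and no member was called in either. Des had the smallest p of the 8 in air and in the average, with 19 to 41.6 normalised counts in vagotomised air livers, against 46.4, 27.8, 53.0, 70.5 and 70.8 in sham air livers. All 6 vagotomised air livers lay below the sham air median, and the groups overlapped through the sham air liver at 27.8. Its log2 change was -0.81 ± 0.24 in air (unadjusted p = 0.00246, limma adjusted p = 1.00) and -0.34 ± 0.24 in ozone (limma adjusted p = 0.557). Averaged over exposures it was -0.57 ± 0.17 (unadjusted p = 0.00244, limma adjusted p = 0.212). Col3a1 in vagotomised against sham ozone livers had a log2 change of 0.60 ± 0.27 (limma adjusted p = 0.283), and all 5 vagotomised ozone livers lay above the sham ozone median. Leaving out the 4 libraries low in 5.8S gave 0.30 ± 0.26 (limma adjusted p = 0.565), with 3 of 4 remaining vagotomised ozone livers above the median of the remaining sham ozone livers, and without vagotomised ozone replicate 1 alone it was 0.40 (limma adjusted p = 0.464).

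The ozone changes of the 8 genes were not shown to differ between vagotomised and sham rats. The difference (change in vagotomised minus change in sham rats) was tested directly, and none of all 12424 genes was called by limma (0% called; 1147 had an unadjusted p under 0.05). edgeR also called 0, and DESeq2 called 16, none of them among the 8. For the 8 genes the limma adjusted p ran from 0.722 to 0.960. The 95% intervals were wide, from -1.35 to 0.71 for Dcn, from -0.29 to 0.99 for Pdgfrb, from -0.29 to 1.27 for Col3a1 and from -0.74 to 1.53 for Col1a1 on the log2 scale. The differences themselves were -0.32 for Dcn, 0.35 for Pdgfrb, 0.49 for Col3a1 and 0.39 for Col1a1. Leaving out the 4 libraries low in 5.8S gave differences of -0.67 (-1.56 to 0.21) for Dcn, 0.04 (-0.43 to 0.51) for Pdgfrb, 0.10 (-0.65 to 0.86) for Col3a1 and 0.18 (-1.12 to 1.48) for Col1a1. Without vagotomised ozone replicate 1 alone the difference was -0.11 for Dcn, 0.09 for Pdgfrb, 0.29 for Col3a1 and 0.25 for Col1a1. Without vagotomised air replicate 3, the library with the highest Col1a1, the difference for Col1a1 was 0.78 (limma adjusted p = 0.604). Call differences between sham and vagotomised rats are thus no measure of an effect of vagotomy on the ozone change.

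Between rats of the same group, Col3a1 varied together with Reln, Pdgfrb and Col1a1. With group means removed, Pearson's r over 22 libraries was 0.77 for Reln and Col3a1, 0.68 for Col3a1 and Pdgfrb and 0.62 for Col1a1 and Col3a1. Spearman's rho was 0.74, 0.68 and 0.67 in the same order. These 3 of 28 pairs passed on r (permutation p = 0.00046, 0.001 and 0.00069; each 0.00933 after adjustment over the 28 pairs), and all 3 also on rho (adjusted permutation p = 0.0114). Leaving out the 2 libraries farthest from the median of the first gene gave r of 0.70, 0.70 and 0.66. Lrat and Col3a1 had r = 0.59 (permutation p = 0.00825, adjusted 0.0577) and rho = 0.60 (permutation p = 0.00678, adjusted 0.0475). Without the 4 libraries low in 5.8S, Reln with Col3a1 (r = 0.79) and Col1a1 with Col3a1 (r = 0.62) passed on r, each with an adjusted permutation p of 0.0301, while Col3a1 with Pdgfrb (r = 0.52, adjusted permutation p = 0.255) did not, and no pair passed on rho. Dcn had r of 0.10 with Col3a1, -0.03 with Col1a1 and -0.25 with Pdgfrb, and Acta2 had r of 0.07 with Col3a1. Libraries were scaled by 1 factor each, which all genes of a library share.

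**Figure D4:**
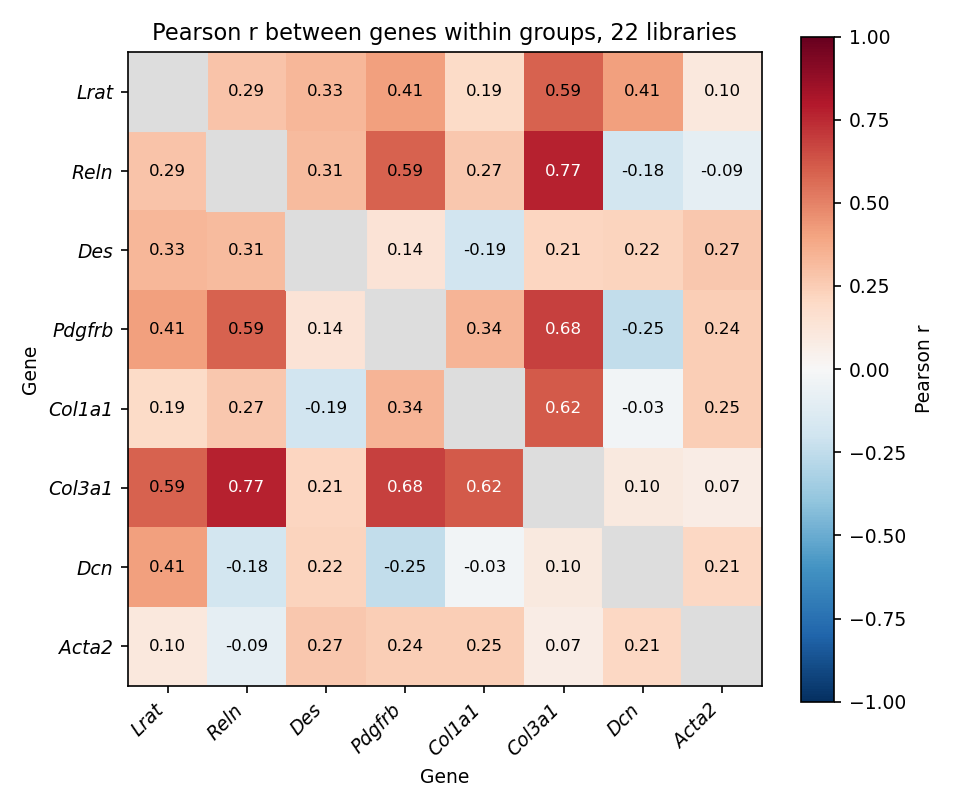
Pearson r between each pair of the 8 genes over 22 libraries, after removing the 4 group means from log2(normalised count + 1). Rows and columns are genes and the colour runs from -1 (blue) to 1 (red). Col3a1 has the highest values, 0.77 with Reln, 0.68 with Pdgfrb and 0.62 with Col1a1, and Dcn and Acta2 are close to 0 with it.

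The genes most like each member were the 3 with the highest Pearson r over the 22 libraries, group differences included. For Col3a1 they were Col5a2 (r = 0.95), a chain of the collagen that nucleates fibrils, Adamts2 (r = 0.91), the protease that trims procollagen, and the locus NEWGENE_621351 (r = 0.90). The annotation used gives NEWGENE_621351 no gene name, and whether it is a gene known under another symbol, Col1a2 among them, was not determined. Col1a1 was most like LOC102553715 (r = 0.90), NEWGENE_621351 (r = 0.84) and Fndc1 (r = 0.80). Reln was most like Pdgfra (r = 0.88), the alpha receptor for platelet-derived growth factor, Adamts13 (r = 0.87), the stellate cell protease that cleaves von Willebrand factor, and Cpz (r = 0.86). Acta2 was most like the smooth muscle genes Tagln (r = 0.81) and Myh11 (r = 0.75), and Sorcs2 (r = 0.75). Des was most like Colec11 (r = 0.72), a collectin of stellate cells, Fut4 (r = 0.68) and Rn50_5_0815.3 (r = 0.65). Lrat was most like AC130391.3 (r = 0.82), Col8a1 (r = 0.80) and Cdk14 (r = 0.78), and Pdgfrb was most like Slc17a9 (r = 0.89), Papss1 (r = 0.87) and Spon2 (r = 0.86). Dcn was most like Dnajc21 (r = 0.91), Yaf2 (r = 0.90) and RGD1311703 (r = 0.89).

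Other genes of the stellate cell and matrix programme were counted in lists, in the averaged ozone comparison, where 20.2% of all genes tested rose and 18.9% fell and the median log2 change of all genes was -0.005. Of 23 other stellate cell markers tested 2 rose and 1 fell, with a median log2 change of -0.15. Tmem56 rose (1.27 ± 0.16, limma adjusted p = 1.67e-06), while the chemokine gene Cxcl12 fell (-0.40 ± 0.12, limma adjusted p = 0.0103). Without the 4 libraries low in 5.8S, 2 of these markers rose and 6 fell. In that fit 42.7% of all genes tested were called, and 52.7% of those calls were rises.

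Among other matrix proteins, with all 22 libraries, the share of genes that fell in both lists was below the 18.9% of all genes tested. Of 15 other collagens 1 fell, Col8a1 (-0.58 ± 0.22, limma adjusted p = 0.0373), a call lost in 11 fits that left out 1 library. Without the 4 libraries low in 5.8S 4 of the 15 fell. In that fit 42.7% of all genes tested were called, and 52.7% of those calls were rises. Of 28 other matrix glycoproteins and proteoglycans 1 rose and 4 fell. Vcan, the large proteoglycan versican, had 25.4 to 57.6 normalised counts in sham ozone livers, against 111 to 156 in sham air livers, and 32.4 to 66.3 in vagotomised ozone livers, against 76.3 to 167 in vagotomised air livers. Ozone and air livers did not overlap for Vcan in either surgery group, and it fell by 1.47 ± 0.16 (limma adjusted p = 1.35e-07). Vcan was named for its small p, so this separation is no separate evidence. Thbs2, a thrombospondin, fell by 0.70 ± 0.18 (limma adjusted p = 0.00371) and Lama4, a laminin chain, fell by 0.54 ± 0.14 (limma adjusted p = 0.00382), while the laminin chain Lamc1 rose by 1.06 ± 0.12 (limma adjusted p = 2.61e-07).

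Of 21 genes for folding, processing and crosslinking of collagen, 6 fell and 1 rose, with a median log2 change of -0.17. Over all genes tested 18.9% fell and 20.2% rose. P4ha1, a subunit of the prolyl hydroxylase that stabilises the collagen helix, had 67.4 to 101 normalised counts in sham ozone livers, against 117 to 257 in sham air livers. In vagotomised rats P4ha1 had 73.4 to 109.9 in ozone livers, against 176 to 232 in air livers. It fell by 1.14 ± 0.12 (limma adjusted p = 7.51e-08), and ozone and air livers did not overlap in either surgery group. Serpinh1, the collagen chaperone, fell by 0.85 ± 0.15 (limma adjusted p = 6.74e-05), Plod2, a lysyl hydroxylase, fell by 1.02 ± 0.21 (limma adjusted p = 0.000531), and the crosslinking transglutaminase Tgm2 fell by 0.49 ± 0.09 (limma adjusted p = 0.000226). Several of these enzymes are made by most cells that secrete protein, hepatocytes among them.

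**Figure D5:**
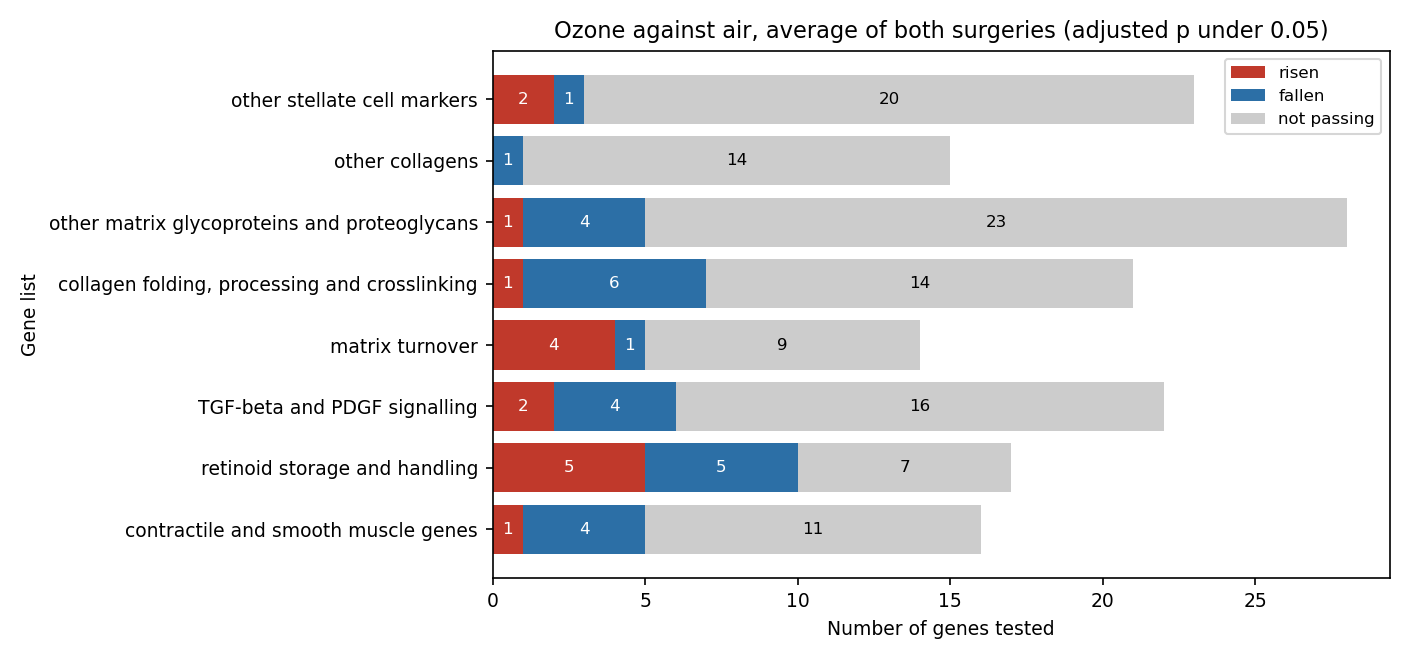
Number of genes (x axis) of each list (y axis) that rose, fell or did not pass a limma adjusted p of 0.05, ozone against air averaged over both surgeries. Collagen folding, processing and crosslinking has 6 falls and 1 rise among 21 genes, matrix turnover 4 rises and 1 fall among 14, and retinoid storage and handling 5 of each among 17.

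Of 14 genes of matrix turnover 4 rose and 1 fell, where 20.2% of all genes tested rose and 18.9% fell. Adamts1, a metalloprotease, rose by 0.52 ± 0.12 (limma adjusted p = 0.00187). Timp1, an inhibitor of matrix metalloproteases, rose by 0.44 ± 0.17 (limma adjusted p = 0.0428), a call lost in 15 of the alternative settings. Adamts9 fell by 1.10 ± 0.24 (limma adjusted p = 0.000933). Of 22 genes of transforming growth factor beta and platelet-derived growth factor signalling 2 rose and 4 fell. Tgfbr2, a receptor for transforming growth factor beta, had 612 to 1024 normalised counts in sham ozone livers, against 1101 to 1449 in sham air livers. In vagotomised rats Tgfbr2 had 607 to 766 in ozone livers, against 1116 to 1284 in air livers, so the groups did not overlap in either surgery. It fell by 0.72 ± 0.07 (limma adjusted p = 8.02e-08). The ligand gene Pdgfc fell by 0.49 ± 0.09 (limma adjusted p = 0.000212) and the signal transducer Smad3 fell by 0.41 ± 0.10 (limma adjusted p = 0.00133), and Bambi, a decoy receptor of the family, rose by 0.58 ± 0.12 (limma adjusted p = 0.000692).

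Around Lrat, 10 of 17 genes of retinoid storage and handling changed, 5 in each direction, with a median log2 change of 0.00. Of all genes tested 39.1% were called. Dhrs3, which reduces retinaldehyde to retinol, had 1626 to 2199 normalised counts in sham ozone livers, against 3084 to 3812 in sham air livers. Dhrs3 in vagotomised rats had 1618 to 1950.2 in ozone livers, against 2375 to 3749.9 in air livers, and the groups did not overlap in either surgery. It fell by 0.86 ± 0.08 (limma adjusted p = 9.37e-09), and Bco1, which cleaves beta-carotene, fell by 0.50 ± 0.10 (limma adjusted p = 0.000502). Cyp26a1, which degrades retinoic acid, rose by 1.05 ± 0.26 (limma adjusted p = 0.00234), and Dgat1, which can also esterify retinol, rose by 0.65 ± 0.08 (limma adjusted p = 1.97e-06). Hepatocytes express several genes of this list, and the cells in which they changed cannot be read from whole liver.

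Around Acta2, 1 of 16 contractile and smooth muscle genes rose and 4 fell, where 20.2% of all genes tested rose and 18.9% fell. The actin-bundling Actn1 fell by 0.72 ± 0.09 (limma adjusted p = 6.37e-07), the tropomyosin Tpm1 fell by 0.51 ± 0.07 (limma adjusted p = 2.62e-06) and smoothelin, Smtn, fell by 0.30 ± 0.10 (limma adjusted p = 0.0159). Mylk, the myosin light chain kinase, rose by 0.27 ± 0.09 (limma adjusted p = 0.0266; 0.109 with libraries scaled to equal totals). Of 2 actin paralogs tested, Actg1 rose by 0.49 ± 0.10 (limma adjusted p = 0.000354). Around Reln, 5 genes of Reelin signalling were tested, of which Pafah1b1 rose (0.39 ± 0.10, limma adjusted p = 0.00326) and the adaptor gene Dab1 fell (-0.46 ± 0.16, limma adjusted p = 0.0220). The genes named in these lists are among the called members with the smallest p, at most 4 a list. Ozone and air groups without overlap are therefore more likely among them than among all genes.

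Markers of other cell types were counted in the same averaged comparison, against 20.2% of all genes that rose and 18.9% that fell. Of 10 tested markers of portal fibroblasts and mesothelium 2 fell and none rose, with a median log2 change of -0.39. Their summed level ran from 5914 to 9321 in sham ozone livers, against 5980 to 8135 in sham air livers, and from 5162 to 6654 in vagotomised ozone livers, against 5957 to 6516 in vagotomised air livers. Most of that sum was 1 gene, Dpt, and the marker Clec3b was at 0 in 2 libraries. Of 14 endothelial markers 1 rose and 1 fell, and of 11 Kupffer cell and macrophage markers 1 fell. Without the 4 libraries low in 5.8S, 5 and 3 of these fell in sham rats, where 35.8% of all genes were called. In vagotomised rats 0 fell in that fit. Of 4 lymphocyte markers 2 fell on average, of 10 hepatocyte markers 3 rose and 1 fell, and of 5 bile duct markers 0 were called. Of 6 dividing-cell markers 1 fell on average, 4 in sham rats and 0 in vagotomised rats. Dividing-cell markers summed to 18.8 to 92.0 in sham ozone livers, against 57.1 to 115 in sham air livers, and to 97.0 to 440 in vagotomised ozone livers, against 107 to 341 in vagotomised air livers. Their part in the changes of the 8 genes was not tested.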

How the data were processed

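Liver RNA of 22 rats was measured by RNA sequencing. The authors deposited a signal for every gene in every library, namely its read count over a size factor of that library. The submitters' processing notes name STAR, Partek, DESeq, DESeq2 and build rn6 but give no version. All 22 columns entered the fits (0 left out). Multiples of 1 step, whole within 0.001, made up 100% of the values, which gave back the reads.

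Values were analysed as log2(normalised count + 1), keeping genes that averaged 10 or more. limma 3.58.1 (R 4.3.3) fitted 4 group means with an intensity trend, two-sided, with Benjamini-Hochberg adjustment and a threshold of 0.05, for 7 comparisons. Called genes for ozone numbered 3526 in sham rats, 2619 in vagotomised rats and 4861 on average. Recovered reads gave 3532, 2684 and 4890 with edgeR 4.0.16 (TMM, quasi-likelihood) and 3750, 2909 and 5004 with DESeq2 1.42.0. Fits were tested on simulated data. Permutation tests of correlations shuffled libraries within groups 100000 times. Alternatives are listed in the closing section.

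Each library is 1 rat per the labels, and p-values measure the spread among these rats. No 2 libraries of a group were copies (50 pairs, lowest chi-square per degree of freedom 9.38). Members, lists and tests were chosen with earlier results of these data known. All members are named, with up to 4 called genes of smallest p per list and the 3 genes most like each member. Of the genes so chosen, 2 are not reported here.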

Additional observations from a re-analysis of the deposited data

Results flagged for a closer look

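Groups of each of the 8 genes were searched for a library far from the others by Dixon's ratio, the gap to the nearest library over the range of the group. Of 32 groups tested 3 passed the 95% critical value, and chance passes about 1 in 20. Dcn in vagotomised ozone had its lowest library, replicate 1 with 113 normalised counts, at a ratio of 0.768, and this is the library with the least 5.8S ribosomal RNA. Col1a1 in vagotomised air had its highest library, replicate 3 with 1032 normalised counts, at a ratio of 0.640. Acta2 in sham ozone had its lowest library, replicate 4 with 146 normalised counts, at a ratio of 0.671. Without these libraries the calls of the 3 genes in the averaged ozone comparison stayed as given.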

How the results depend on the processing

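Over 13 alternatives (pseudocounts 0.5 and 5, no minimum mean or 50, equal column totals or upper quartiles, a replicate block, only the groups compared, edgeR, DESeq2, without the 4 libraries low in 5.8S, and log2 5.8S or the S number of the sample description as a covariate) and 22 fits that each left out 1 library, 1929 values of the 8 genes in 7 comparisons were recomputed. Of these 1895 kept their side of the threshold, 15 lost a call, 19 gained one and 0 called values reversed. Among the 1895 were 44 uncalled values that changed sign. The number of the 8 genes called for ozone in sham rats was 3, and 5 with equal column totals, and ran from 2 to 4 with 1 library left out. Of all genes 28.4% were called there, and 28.5% with equal column totals. In vagotomised rats the number of the 8 was 0, and 2 without the 4 libraries low in 5.8S, 1 with log2 5.8S as a covariate, and from 0 to 2 with 1 library left out. The shares of all genes called in the first 3 of these fits were 21.1%, 22.6% and 24.8%. On average the number of the 8 was 5, and from 4 to 5. Correlated pairs numbered 3, and 5 with equal column totals. Why these values moved was not tested. Equal column totals moved the median of all genes in sham rats to -0.09, and the share of calls that rose was then 33.9%, against 51.3% as deposited (39.3% with equal upper quartiles); on average it was 40.6%, against 51.7%. Same-numbered libraries of different groups correlated from r = -0.49 to 0.61, with 10 of 31 pairs over 0.1 and 2 libraries most like one of their own number, so the numbers were not taken as pairs; with a replicate block 3, 0 and 5 of the 8 genes were called in the same 3 comparisons, and Dcn averaged 1.11 (limma adjusted p = 0.00246). Of all 12424 genes, vagotomy on average called 14, and 37 with no minimum mean, 3 with a minimum of 50, 4 with a replicate block, 36 with edgeR, 114 with DESeq2 and 25 without the 4 libraries low in 5.8S. In ozone it called 166, and 14 with only the groups compared, 2.95% of genes with DESeq2 against 1.34% with limma, 272 without those libraries and 321 with log2 5.8S as a covariate. The difference between ozone changes called 0, and 16 with DESeq2. Low counts limit Des, at most 70.8 in any library.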
